A study of Homo sapiens with 27 samples.

Results

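The KLF genes encode Krüppel-like factors, transcription factors with a conserved block of zinc fingers at the C-terminal end. Of the family, 10 genes listed by symbol (KLF2, KLF3, KLF4, KLF6, KLF7, KLF9, KLF10, KLF11, KLF13 and KLF16) were looked up by their Ensembl identifiers, and all 10 were found among the 57905 identifiers of the expression table. RNA-seq was done on U937 cells, a human myeloid leukemia cell line, in 3 groups of 3 libraries. Control cells received no matrine, and the other groups were cultured with 0.8 mg/ml matrine, an alkaloid of Sophora flavescens, for 30 min or for 24 h. All groups were grown in RPMI medium with fetal bovine serum, and the vehicle named for matrine was ddH2O. Both treatment times were compared with the same 3 control libraries. The culture time of the controls is not named, so that 24 h of matrine and 24 h of further culture cannot be told apart. The series also holds HL-60 and K562 libraries, which were not analysed here, and U937 is a single cell line.

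The zinc fingers of the KLF proteins bind CACCC and GC-box motifs in promoters, which they share with the SP factors, and the members differ in what the rest of the protein recruits. KLF3 recruits the corepressor CtBP; KLF2, KLF4, KLF6 and KLF7 carry activation domains and work with acetyltransferases; and KLF9, KLF10, KLF11, KLF13 and KLF16 carry a short motif that binds the SIN3A and histone deacetylase corepressor. In myeloid cells KLF4 is known for its part in monocyte differentiation, KLF2 for restraining monocyte activation, and KLF10 for its induction by TGF-beta, from which its older name TIEG1 comes.

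The total count was 17314931 to 21930018 per library, and counts of libraries of a group varied beyond sampling noise. U937 cells carried myeloid genes: 6 of 8 myeloid markers had a mean above 1 FPKM (fragments scaled to transcript length and to library size) in the control, and their summed level was 1269 to 1430 FPKM in the control, 1350 to 1367 at 30 min and 1726 to 1854 at 24 h. Most of that sum was ELANE, the gene of neutrophil elastase, at 885 ± 86.1 FPKM in the control and 1378 ± 68.5 at 24 h (SD, n = 3). Of 7 markers tested at 24 h, 2 were called, both higher: ELANE (log2 change 0.59) and MPO, the gene of myeloperoxidase (2.50, from 0.313 to 1.84 FPKM). MPO reached the mean above 1 FPKM required for a test only through its level at 24 h. It was not tested at 30 min, where 0 of 6 markers were called. At 24 h SPI1 (-0.32, adjusted p = 0.00046), CEBPA (-0.37, adjusted p = 0.00028) and LYZ (-0.31, adjusted p = 2.9e-05) were lower and CD4 (0.56, adjusted p = 2.8e-08) was higher by less than 1.5-fold, and the median of the list was -0.07. CEBPA was at -0.38 at 30 min as well (adjusted p = 0.0066). Their part in the changes of the KLF genes was not tested. Erythroid markers summed to 2.45 to 4.12 FPKM over the 9 libraries, of which KLF1 alone passed 1 FPKM, lymphoid markers to 1.08 to 2.15 FPKM and epithelial and fibroblast markers to 0.03 to 0.12 FPKM. In bulk RNA, a change in the amount of RNA per cell and a change in the share of cells that carry it cannot be told apart.

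The stretch of DNA just upstream of the start site is shown for 4 members, chosen to set members with different changes below beside each other: KLF6 with the higher level at 24 h, KLF16 with the lower level, KLF13 as the other member of high abundance, and KLF9. They were taken from the RefSeq table of the GRCh38.p14 build, which held windows for 8 of the 10 members. KLF3 and KLF10 had none, and KLF7 and KLF11 had more than 1. Each stretch shown is written 5′ to 3′ on the strand of its gene, and capitals mark the GC box, GGGCGG or CCGCCC on the other strand. In KLF6 the part of the window that lies in an annotated exon was left out.
KLF6, chr10:3785282-3785459, minus strand: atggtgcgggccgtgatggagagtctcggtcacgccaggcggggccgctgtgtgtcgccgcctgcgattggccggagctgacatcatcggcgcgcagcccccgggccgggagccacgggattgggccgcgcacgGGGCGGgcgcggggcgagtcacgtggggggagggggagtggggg
KLF16, chr19:1863580-1863829, minus strand: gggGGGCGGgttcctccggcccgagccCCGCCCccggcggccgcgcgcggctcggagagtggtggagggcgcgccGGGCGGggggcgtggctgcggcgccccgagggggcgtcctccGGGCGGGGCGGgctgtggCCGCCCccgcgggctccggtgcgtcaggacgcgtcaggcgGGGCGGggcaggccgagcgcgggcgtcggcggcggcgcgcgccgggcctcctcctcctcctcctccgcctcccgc
KLF13, chr15:31326585-31326834, plus strand: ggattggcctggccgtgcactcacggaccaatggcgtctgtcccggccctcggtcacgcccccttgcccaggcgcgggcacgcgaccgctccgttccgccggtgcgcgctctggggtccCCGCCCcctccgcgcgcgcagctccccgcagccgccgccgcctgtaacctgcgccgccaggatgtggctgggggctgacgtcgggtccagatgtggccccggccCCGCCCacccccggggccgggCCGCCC
KLF9, chr9:70414658-70414907, minus strand: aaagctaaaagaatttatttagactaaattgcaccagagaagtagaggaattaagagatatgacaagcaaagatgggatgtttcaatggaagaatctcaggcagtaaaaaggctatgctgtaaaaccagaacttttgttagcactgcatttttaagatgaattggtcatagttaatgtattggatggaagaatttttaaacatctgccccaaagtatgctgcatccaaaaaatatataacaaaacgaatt
KLF16 had 86.4% G and C over its 250 bases and 7 GC boxes, the largest number among the windows of the members, with each of 2 overlapping matches counted. KLF13 had 78.8% and 3 GC boxes, and KLF6 had 72.4% and 2 GC boxes over its whole window, 1 of them in the stretch printed. KLF9 differed from these: it had 32.4% G and C and no GC box. KLF6, KLF9 and KLF13 each carried 2 CCAAT boxes, a motif found in 32.0% of all windows. Over the same length, KLF2 (80.0% G and C) and KLF4 (69.2%) each had 4 GC boxes. Of all 35116 windows of this length in the table, 42.6% held a GC box on either strand, and the median content of G and C was 58%. The CACCC motif, searched on both strands, was found in 54.7% of all windows and, among these 6 members, once in KLF13, where its first base is also the last of a GC box. The CRE half-site TGACG, bound by CREB and ATF factors and present in 21.2% of all windows, had 2 matches in KLF4, 2 in KLF16 and 1 in KLF13. It also had 2 in a window of KLF11. KLF4 and KLF6 each held 1 E-box CACGTG, the letters read by MYC and MAX, against 6.34% of all windows. So did 1 window of KLF7 and 1 of KLF11. A match describes the letters of the window, and no binding was measured here.

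**Figure D1:**
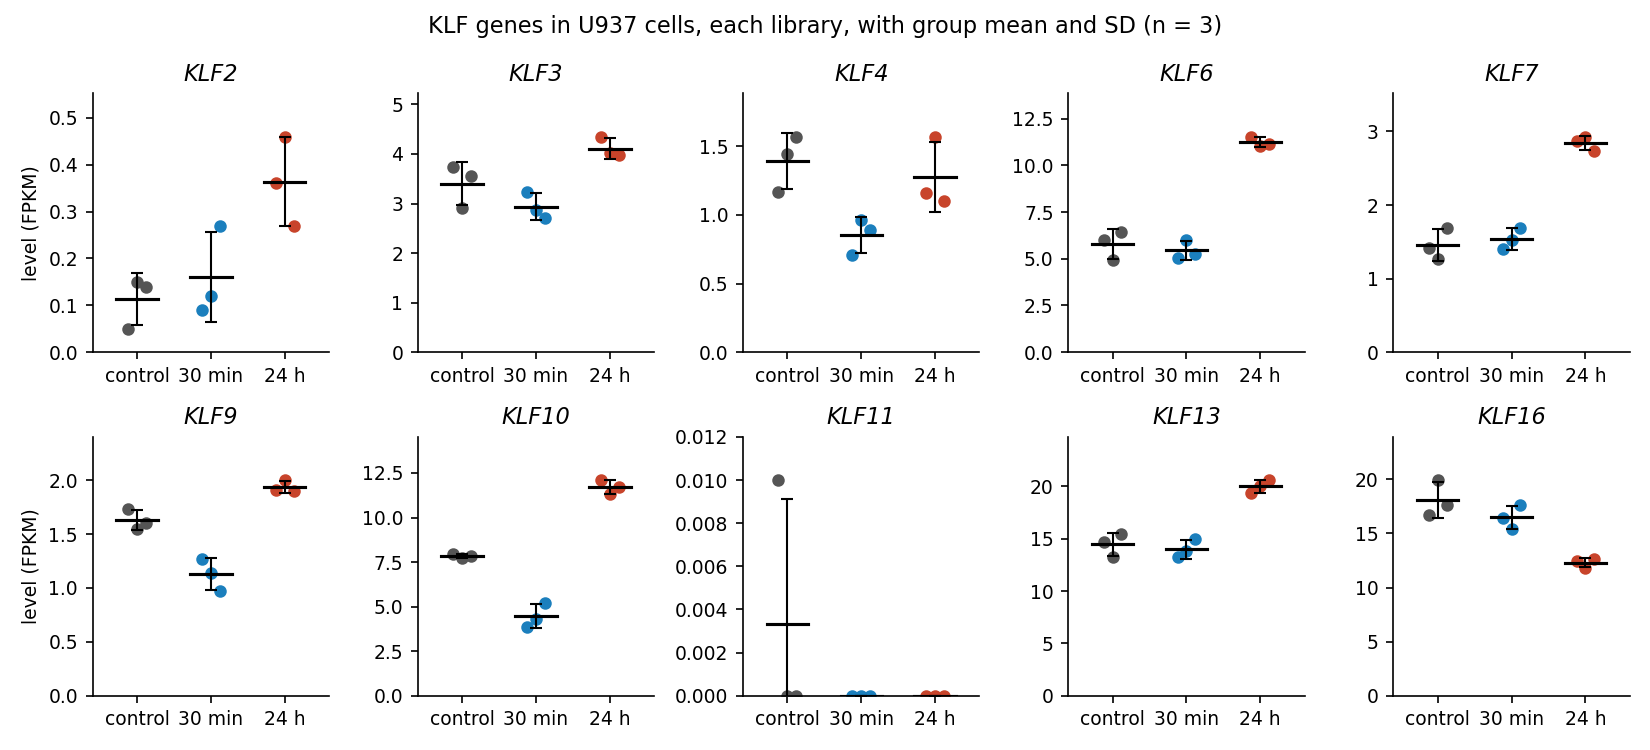
Level of each of the 10 KLF genes in FPKM (vertical axis, from 0, scaled for each gene) in the control, 30 min and 24 h libraries. Points are libraries, lines are group means and bars are SD (n = 3); KLF10 is lowest at 30 min and highest at 24 h, KLF6 and KLF7 are high only in the 24 h libraries, KLF16 is lowest there, and the single point of KLF11 is 1 read.

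In untreated U937 cells, KLF16 and KLF13 were the most abundant members. KLF16 stood at 18.1 ± 1.65 FPKM and KLF13 at 14.5 ± 1.10 FPKM (SD, n = 3), and together they held 33.4% and 26.7% of the summed FPKM of the 10 genes. KLF10 followed at 7.84 ± 0.101, KLF6 at 5.79 ± 0.778 and KLF3 at 3.40 ± 0.433 FPKM, each with libraries apart from those of its neighbours in this order. KLF9, KLF7 and KLF4 lay between 1.39 and 1.63 FPKM on average, and neighbours among them overlapped. KLF2 was near the lower limit at 0.113 ± 0.0551 FPKM, or 2 to 6 reads per library, and KLF11 had 1 read in 1 control library and none in the other 8 libraries. A count of 3, the upper limit that a count of 0 allows, was worth 0.137 to 0.173 CPM (counts scaled to library size) in these libraries, so KLF11 was not detectable at this depth rather than shown to be absent. This floor covers counting error only.

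After 30 min of matrine, KLF10 was the only member called. Counts of all genes were tested with the quasi-likelihood method of edgeR, with Benjamini-Hochberg adjustment over all genes tested. A gene was tested at a mean above 1 FPKM over the 6 libraries compared, and was called at an adjusted p below 0.05 with a change of at least 1.5-fold. KLF2 and KLF11 did not reach that level, and the other 8 members were tested at both times. Of these 8, 1 was called lower and 0 higher, where 0.544% and 0.0949% of the 11587 genes tested were. At an unadjusted p below 0.05, 3 members were lower and 0 higher, and DESeq2 called 1 lower and 0 higher. After 24 h, 1 of the 8 was called lower and 2 higher, against 11.2% and 15.1% of 12035 genes, so that the members' share at 24 h was near that of genes at large. Between 30 min and 24 h, 0 were called lower and 4 higher, against 11.5% and 15.4% of 11981 genes. KLF16 was the 1 member lower at an unadjusted p below 0.05 (adjusted p = 1.7e-05), at 1.42-fold not called. DESeq2 gave these same counts. The median log2 change of the 8 members was -0.16 at 30 min, 0.32 at 24 h and 0.60 between the treatment times, where the median of all tested genes was -0.0043, 0.0082 and 0.014. By the ranges of the libraries, 3 members lay wholly below the controls at 30 min (KLF4, KLF9 and KLF10), as did 8.91% of all tested genes. At 24 h 1 member lay wholly below the controls and 6 wholly above, against 31.0% and 38.7% of all tested genes.

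**Figure D2:**
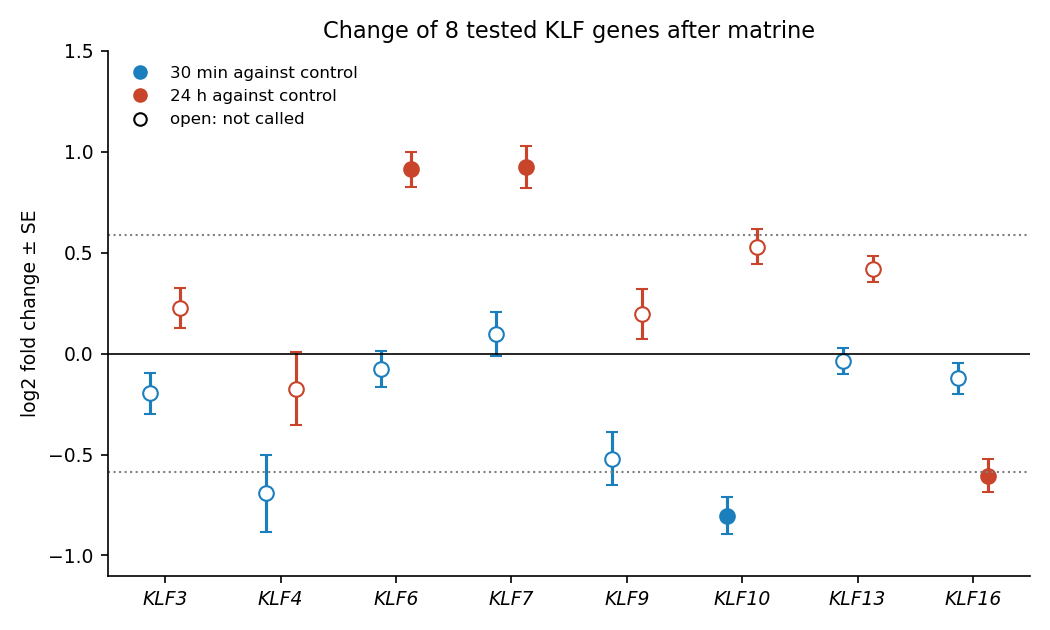
Log2 fold change with its SE (vertical axis) of the 8 tested KLF genes at 30 min (blue) and 24 h (red) against the same 3 control libraries. Filled points were called, open points were not, and dotted lines mark a 1.5-fold change; KLF10 is called at 30 min, and KLF6, KLF7 and KLF16 at 24 h.

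Among the members that bind SIN3A, KLF10 (ENSG00000155090), a repressor of proliferation induced by TGF-beta, was alone in being called at 30 min. Its level was 7.95, 7.75 and 7.83 FPKM in the control libraries, 3.87, 4.33 and 5.2 at 30 min and 12.10, 11.30 and 11.73 at 24 h. The 3 groups did not overlap: every 30 min library was below, and every 24 h library above, every control. At 30 min KLF10 fell by 0.80 on the log2 scale (SE 0.092, adjusted p = 1.3e-05), a 1.74-fold change. At 24 h the log2 change was 0.53 (SE 0.087, adjusted p = 2.0e-05), which at 1.44-fold did not reach the fold change required for a call. From 30 min to 24 h KLF10 rose 2.48-fold (log2 1.31, SE 0.091, adjusted p = 8.4e-11), the largest change among the tested members. No exon of another annotated gene overlapped those of KLF10.

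KLF9, a factor induced by glucocorticoids and thyroid hormone, had the lowest levels of its own at the same time as KLF10. It was measured at 1.73, 1.55 and 1.60 FPKM in the control, 1.27, 1.14 and 0.97 at 30 min and 1.91, 2.00 and 1.9 at 24 h. The 30 min libraries again lay below and the 24 h libraries above all controls, by a smaller margin. At 30 min the log2 change was -0.52 (SE 0.13, adjusted p = 0.0462), which at 1.43-fold was not called. Without replicate 1 of the 30 min group it was -0.62 and was called. Over all alternatives run it lay between -0.62 and -0.31, with an adjusted p from 0.039 to 0.26. At 24 h it was 0.20 (SE 0.12, adjusted p = 0.17). KLF9 rose from 30 min to 24 h by 0.70 on the log2 scale (SE 0.13, adjusted p = 6.5e-05).

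KLF13 and KLF16, the most abundant members, kept their levels at 30 min within the range of the controls or close to it and parted at 24 h. KLF16 (ENSG00000129911), a repressor first described in dopamine receptor gene control, was at 16.72, 19.93 and 17.67 FPKM in the control, 16.39, 15.45 and 17.62 at 30 min and 12.46, 11.82 and 12.64 at 24 h. The 24 h libraries were below all 6 others. KLF16 fell by 0.61 at 24 h on the log2 scale (SE 0.082, adjusted p = 1.6e-06), a 1.52-fold change just past the threshold, and had a log2 change of -0.12 at 30 min (adjusted p = 0.62). The direction held under every alternative run, between -0.67 and -0.52, but the call was lost where the change came out below 1.5-fold: -0.54 without control replicate 2, -0.57 without replicate 2 of the 24 h group, and -0.56 with scaling by library totals. Of the annotated exonic bases of KLF16, 16.3% lay opposite a gene on the other strand, whose count was 0 in all libraries.

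The opposite was measured for KLF13, an activator of late CCL5 expression in T cells. Its libraries had 14.68, 13.29 and 15.46 FPKM in the control, 13.21, 13.81 and 14.95 at 30 min and 19.35, 20.03 and 20.60 at 24 h. All 24 h libraries were above all others. The log2 change of KLF13 at 24 h was 0.42 (SE 0.063, adjusted p = 6.7e-06), at 1.34-fold below the fold change for a call, and at 30 min it was -0.04 (adjusted p = 0.90).

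The activating members KLF6 and KLF7 rose together at 24 h. KLF6 (ENSG00000067082), a broadly expressed factor studied as a tumour suppressor and in macrophage activation, stood at 6.03, 4.92 and 6.42 FPKM in the control, 5.05, 6.03 and 5.25 at 30 min and 11.54, 11.05 and 11.13 at 24 h. Control and 30 min libraries overlapped, and the 24 h libraries lay far above both. KLF6 rose 1.88-fold at 24 h (log2 0.91, SE 0.085, adjusted p = 7.9e-09), and its log2 change at 30 min was -0.08 (SE 0.090, adjusted p = 0.83). KLF7 (ENSG00000118263), known best from neurons and adipose cells, was measured at 1.42, 1.26 and 1.69 FPKM in the control, 1.4, 1.53 and 1.69 at 30 min and 2.87, 2.93 and 2.74 at 24 h. The pattern was that of KLF6 at a lower level. KLF7 rose 1.898-fold at 24 h (log2 0.92, SE 0.10, adjusted p = 1.1e-07), with a log2 change of 0.10 at 30 min (adjusted p = 0.82). The change of KLF6 at 24 h ranged from 0.80 to 0.98 and that of KLF7 from 0.65 to 1.03 over the alternatives run.

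KLF4, a factor of monocyte differentiation and of stem cell reprogramming, was low and variable. It had 1.17, 1.44 and 1.57 FPKM in the control, 0.71, 0.96 and 0.89 at 30 min and 1.16, 1.57 and 1.10 at 24 h. The 30 min libraries were below all controls, whereas the 24 h libraries overlapped them. At 30 min the log2 change of KLF4 was -0.69 (SE 0.19, adjusted p = 0.078), a difference of 1.62-fold that did not pass the test, and it was tested at all because of its level in the controls. Without the filter on low levels the adjusted p was 0.0323 and KLF4 was called lower, and over the alternatives the change lay between -0.79 and -0.37. At 24 h it was -0.17 (SE 0.18, adjusted p = 0.42). Of the exonic bases of KLF4, 9.75% overlapped a gene on the opposite strand that was not matched in the table, and whether reads were counted by strand is not stated.

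KLF2, which holds T cells and monocytes in a resting state, was the scarcest member with reads in every library. The libraries held 2, 6 and 5 reads in the control, 4, 5 and 11 at 30 min and 15, 19 and 12 at 24 h. The 24 h libraries were above all controls, whereas they overlapped the 30 min libraries once scaled: replicate 3 had 0.27 FPKM in both groups. At this level KLF2 was outside the tested genes. With no filter, the fitted log2 change at 24 h was 1.55 (SE 0.58, adjusted p = 0.027) and KLF2 was called higher, a value that rests on a total of 13 reads in the control and 46 at 24 h.

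KLF3, the member that recruits CtBP, was not called in any comparison. It was at 3.73, 2.91 and 3.56 FPKM in the control, 3.24, 2.86 and 2.71 at 30 min and 4.35, 4.01 and 3.97 at 24 h. The 24 h libraries lay just above the highest control, and the 30 min libraries overlapped the controls. The log2 change of KLF3 was -0.20 at 30 min (adjusted p = 0.51) and 0.23 at 24 h (SE 0.098, adjusted p = 0.0504). Between the times it was 0.40 (SE 0.099, adjusted p = 0.0013), at 1.32-fold not called. KLF3 overlapped its antisense gene KLF3-AS1 over 3.91% of its exonic bases, and KLF3-AS1 had 5 to 21 reads per library against 348 to 563 for KLF3.

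The order of the members changed with these shifts. After 30 min, KLF10 dropped to 4.47 ± 0.676 FPKM and overlapped KLF6 at 5.44 ± 0.518, where in the control it had been above it. After 24 h, KLF13 led at 19.99 ± 0.626 FPKM, and KLF16, KLF10 and KLF6 followed at 12.3 ± 0.431, 11.7 ± 0.400 and 11.2 ± 0.263 FPKM, with neighbours that overlapped. The log2 ratio of KLF13 to KLF16 within a library, which does not depend on scaling between libraries, was -0.32 ± 0.23 in the control, -0.24 ± 0.075 at 30 min and 0.70 ± 0.063 at 24 h (SD, n = 3). All 24 h libraries lay on the other side of 0 from the controls (exact two-sided permutation test, p = 0.1, the smallest that 3 against 3 libraries can give). The log2 ratio of KLF10 to KLF6 was 0.45 ± 0.19 in the control, -0.29 ± 0.25 at 30 min and 0.059 ± 0.023 at 24 h, without overlap between groups (exact p = 0.1 for each pair of groups). Both ratios were outside the planned tests and join members already seen to move apart in these libraries, so they add no separate support.

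**Figure D3:**
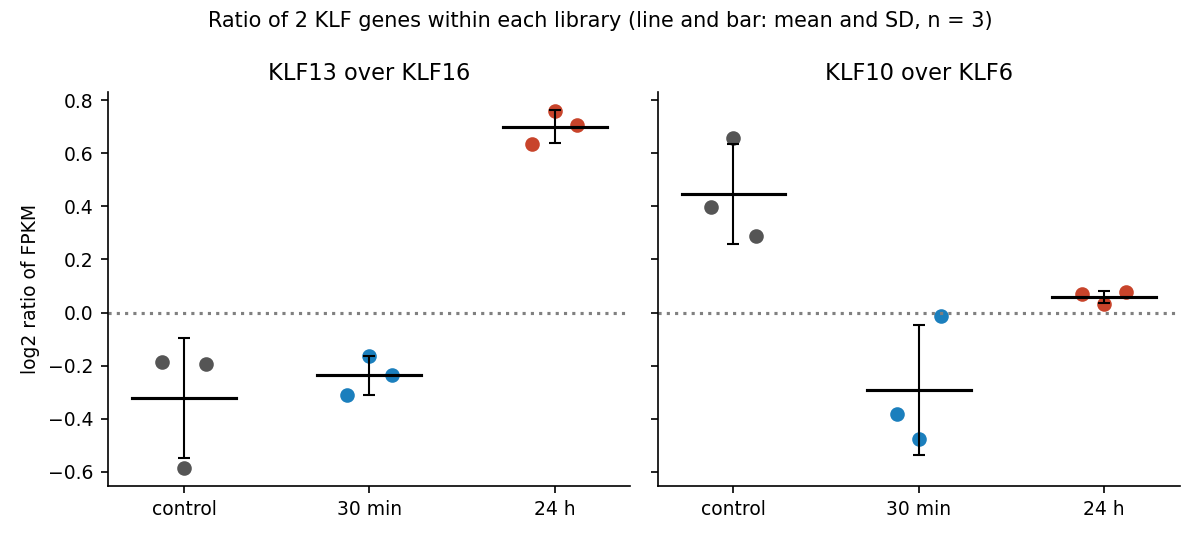
Log2 ratio of FPKM (vertical axis) of KLF13 to KLF16, left, and of KLF10 to KLF6, right, within each library of the control, 30 min and 24 h groups. Points are libraries, with mean and SD (n = 3); KLF13 passes KLF16 only in the 24 h libraries, and the 30 min libraries have KLF10 at or below KLF6.

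The summed level of the 10 genes was 54.2 ± 1.51 FPKM in the control, 47.0 ± 2.26 at 30 min and 65.8 ± 0.531 at 24 h (SD, n = 3). The share of KLF16 went from 33.4% to 18.7% of this sum between control and 24 h, and that of KLF6 from 10.7% to 17.1%. KLF10 held 14.5% in the control, 9.47% at 30 min and 17.8% at 24 h. The mean share of KLF13 stayed between 26.7% and 30.4%, and that of KLF3 between 6.25% and 6.27%, in all groups. Single libraries ran from 25.0% to 31.2% for KLF13 and from 5.47% to 7.16% for KLF3.

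Genes near KLF10 in pattern were sought as those with the smallest Euclidean distance to it over the 9 libraries, on log2 CPM centred on the control mean. The nearest was C3orf80, at a distance of 0.38, with a log2 change of -0.69 at 30 min and 0.60 at 24 h, both called. The long noncoding RNA LINC02470 came next at 0.46, with -0.81 at 30 min, called, and 0.45 at 24 h, not called. ENSG00000244567 was at 0.49, was too low to be tested at 30 min and had a fitted log2 change of 0.75 at 24 h, where it passed the filter through its level at 24 h. The changes of these 3 genes are descriptions, since the genes were chosen for their likeness to KLF10 over the same libraries.

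The 3′ untranslated regions of the members were read from the canonical transcripts of GENCODE release 44, since AU-rich elements there are known to shorten the life of an mRNA. KLF7 had 20 copies of the pentamer ATTTA over 7076 bases, a number reached by 3.26% of the genes tested at 30 min, and KLF3 had 9 over 4254 bases. KLF10, the member called at 30 min, had 3 over 1348 bases, and 45.8% of those genes had as many or more. KLF4 and KLF16 had 2 each, KLF2 had 4, KLF13 5, KLF6 6, KLF11 6 and KLF9 8. The median of the tested genes was 2, at a median length of 1280 bases. Per kilobase their median was 1.675, with KLF13 at 0.893, KLF16 at 0.971 and KLF6 at 1.69. The other members lay between 2.12 (KLF3) and 2.83 (KLF7) per kilobase. The longer element TTATTTATT occurred in KLF16 alone among the members, and in 9.02% of the 9688 tested genes with such a region. It is shown in capitals with its flanks, as the RNA strand in DNA letters, at GRCh38 chr19:1853692-1853720 on the minus strand.
KLF16 site: gaatcctggcTTATTTATTttcctctgtc
KLF16 was not called at 30 min, as stated above, and no decay was measured.

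In the rest of the family, 6 of 8 listed genes were matched in the table and 2 were tested. KLF15, a regulator of metabolism that responds to glucocorticoids, was at 2.11, 1.9 and 1.80 FPKM in the control, 1.49, 1.30 and 1.48 at 30 min and 0.63, 0.83 and 0.88 at 24 h. The 3 groups did not overlap, in the order control, 30 min, 24 h. KLF15, which passed the filter on low levels through its level in the control, fell by 1.36 at 24 h on the log2 scale (SE 0.18, adjusted p = 1.3e-06), whereas at 30 min the log2 change was -0.44 (SE 0.16, adjusted p = 0.26). KLF1, the erythroid member, was at 3.12 ± 0.733 FPKM in the control with a log2 change of -0.06 at 24 h (adjusted p = 0.82). KLF5 stood at 0.663 FPKM in the control, under the filter, and KLF8, KLF12 and KLF17 had at most 0.0133 FPKM on average in any group. Of 9 SP genes, which bind the same motifs, 4 were tested and 0 were called at either time by edgeR or DESeq2, with a median log2 change of -0.04 at 30 min and 0.08 at 24 h. At an unadjusted p below 0.05 there were 0 at 30 min and 1 at 24 h, which was SP2 with a log2 change of 0.46 (SE 0.094, adjusted p = 0.00022).

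In each list of partners of the KLF proteins, at most 1 gene was called in each direction at 24 h. Of all tested genes, 11.2% were called lower and 15.1% higher. At 30 min edgeR and DESeq2 called 0 in each of these lists. At an unadjusted p below 0.05 edgeR had 2 lower at 30 min among the kinases and MEF2 factors and 0 in the other lists. Of these 2, 1 had an adjusted p below 0.05 (0.049), at 1.24-fold not called. By adjusted p below 0.05 alone, 1.62% of all tested genes passed at 30 min and 63.3% at 24 h. Both CtBP genes were tested and 0 were called by edgeR or DESeq2; at an unadjusted p below 0.05, 1 was lower and 1 higher at 24 h. Of the 5 SIN3 and histone deacetylase genes, 1 was called lower at 24 h: HDAC2 fell from 16.7 ± 0.140 to 10.4 ± 0.398 FPKM (log2 change -0.73, adjusted p = 2.6e-09), and the median log2 change of the list was -0.11. Of 4 acetyltransferase genes, 1 was called in each direction: KAT2A (GCN5) had a log2 change of -0.67 and KAT2B (PCAF) of 1.08, with a median of 0.15 over the list. Among the kinases and MEF2 factors upstream of KLF2 and KLF4, 1 of 4 tested genes was called, MAPK7, which encodes ERK5, with a log2 change of 1.07 (SE 0.11, adjusted p = 5.3e-08). Of 4 tested genes for ubiquitin ligase components that act on KLF proteins, 0 were called by edgeR or DESeq2, and 2 were lower at 24 h at an unadjusted p below 0.05.

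Of 12 genes described elsewhere as KLF targets, 11 were matched. Matched genes that were not tested were below the filter on FPKM. At 30 min, 2 of 7 tested were called lower and 0 higher, against 0.544% and 0.0949% of all genes tested. The median log2 change was -0.10. At an unadjusted p below 0.05, 3 were lower. Among these, PLAU had a log2 change of -0.52 (adjusted p = 0.00036), at 1.43-fold not called. THBD, the gene of the anticoagulant receptor thrombomodulin and a target of KLF2 and KLF4, went from 7.98 ± 0.165 to 4.97 ± 0.532 FPKM (log2 change -0.67, adjusted p = 6.2e-05). SMAD7, an inhibitor of TGF-beta signalling that KLF10 is known to repress, had a log2 change of -0.72 at 30 min (SE 0.16, adjusted p = 0.021), and its call was lost without control replicate 3 (-0.62) or without replicate 2 of the 30 min group (-0.55). At 24 h, 4 of 6 were called higher and 0 lower, against 15.1% of all genes tested, with a median log2 change of 0.77. The 1 gene lower at an unadjusted p below 0.05 had an adjusted p of 0.0094, at 1.16-fold. CDKN1A, the p21 inhibitor of the cell cycle and a target of KLF4 and KLF6, had the largest log2 change of them, 2.56 (SE 0.14, adjusted p = 2.6e-12), from 1.18 ± 0.186 to 7.19 ± 0.648 FPKM. SMAD7 rose by 0.98, PLAU (urokinase) by 0.92 and TGFBR1 (a TGF-beta receptor) by 0.62 on the log2 scale, the last of these 0.55 and uncalled without control replicate 2. These genes have many other regulators, and the part of any KLF protein in their change was not tested.

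Since KLF9 and KLF15 are known to answer to glucocorticoids, 5 genes of that response were read beside them. At 24 h, 1 of 3 tested genes was called higher, against 15.1% of all genes tested, and the median log2 change of the list was -0.13: TSC22D3 (GILZ) rose by 3.24 on the log2 scale, from 1.28 ± 0.0872 to 12.5 ± 0.435 FPKM. PER1 had a log2 change of -0.53 at 24 h (adjusted p = 0.00042), below the fold change for a call, and was called lower between 30 min and 24 h (-0.73). FKBP5 was at -0.13 at 24 h (adjusted p = 0.0437), not called. Beside these, KLF9 had a log2 change of 0.20 at 24 h and KLF15 one of -1.36.

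**Figure D4:**
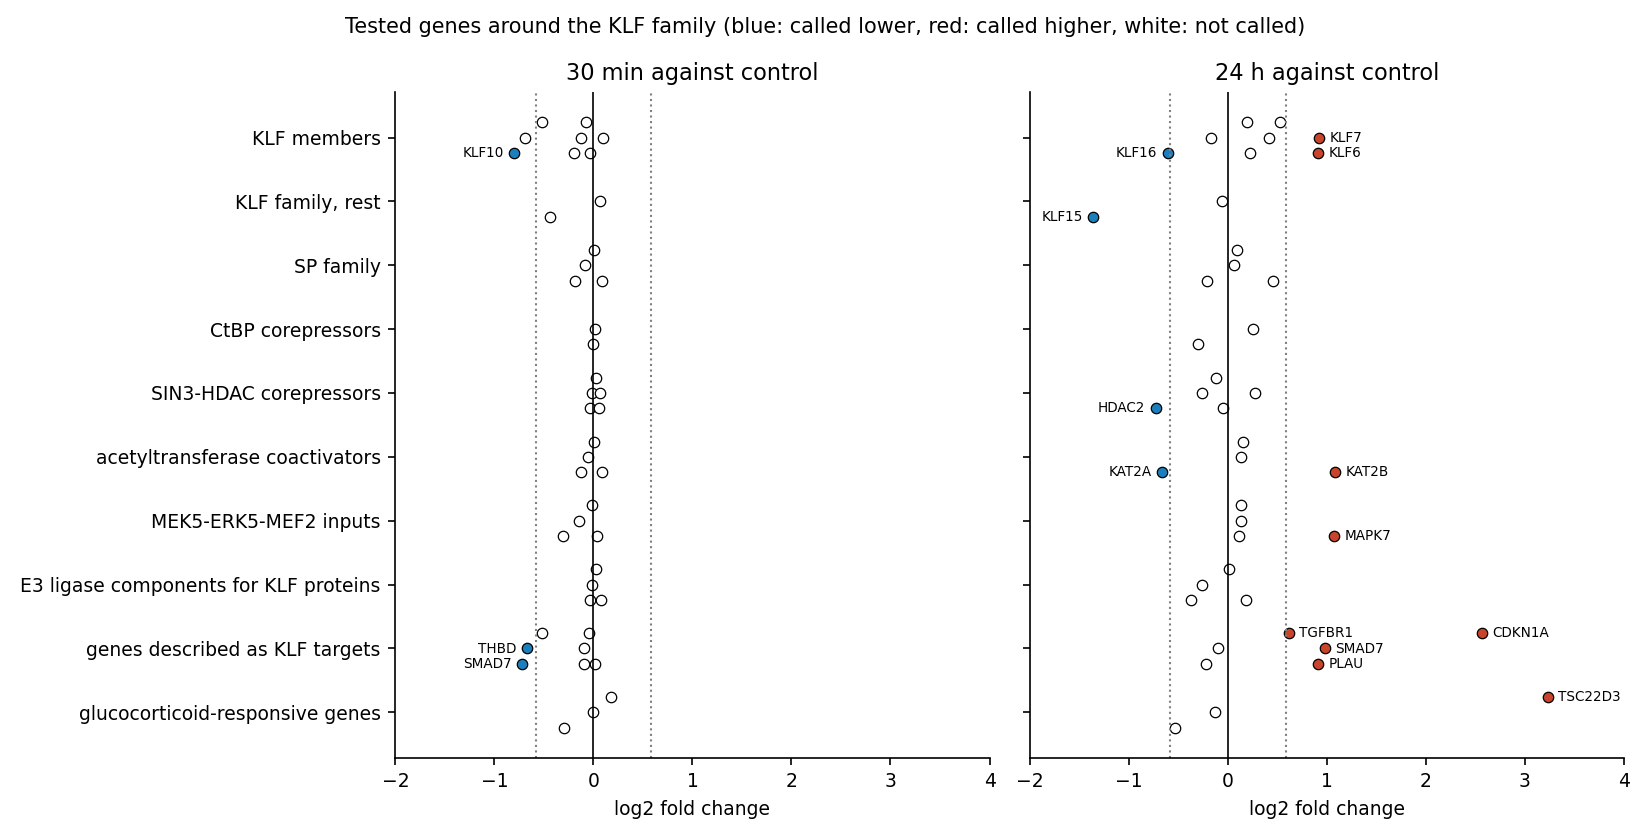
Log2 fold change (horizontal axis) of every tested gene of the KLF members and the lists around them, one row a list, at 30 min (left) and 24 h (right) against control. Blue points were called lower, red points higher and white points were not called, with dotted lines at a 1.5-fold change; at 30 min the called genes are KLF10, THBD and SMAD7.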

How the data were processed

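RNA-seq libraries of U937 cells were made from total RNA, 3 per group. For the selection of RNA, the methods name a poly(A) mRNA isolation module or an rRNA removal kit as alternatives. The submitters' processing notes name cutadapt 1.9.1, HISAT2 2.0.1 and HTSeq 0.6.1. The notes name GRCh37 and the methods hg38, so no coordinates of the counted genes are given; the annotation release and strand setting are not given in the sources used here. The table the authors deposited gives every gene a raw read count and an FPKM value per library. FPKM gave the filter and the levels, and the counts the tests. Symbols came from GENCODE release 44, with which 51996 of 57905 identifiers were matched; CCL5, KLF14 and KLF18 were not matched and are not analysed here.

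Counts were scaled by TMM and fitted with edgeR 4.0.16 (R 4.3.3) over all 9 libraries, with the group as the only term. The adjusted p of 0.05, the fold change of 1.5 and the FPKM of 1 are the thresholds the methods name with DESeq2; taking the mean FPKM over the 6 libraries compared, using edgeR, and comparing 24 h with 30 min were choices made here. The SE was obtained by dividing the log2 fold change by the square root of the F statistic. Checks on simulated data preceded the fit. All members were named; genes of other lists were named when called in a comparison, and the 3 genes nearest to the member called at 30 min by distance. Genes outside this rule (KLF1, KLF5, KLF8, KLF12, KLF17, SP2, SPI1, CEBPA, LYZ, CD4, FKBP5) were added after their values were seen. Members and lists were chosen with earlier results of these data known. The labels do not say that libraries of a group came from separate cultures. The methods give at least 3 independent replicates for the study's data in general, without naming the RNA-seq libraries. The p-values therefore measure the spread between these libraries, which may be technical. Replicate numbers did not pair the samples. All 8 processed copies of members had 0 counts. Alternatives were the filter, the scaling, DESeq2 1.42.0, limma 3.58.1 on log2(FPKM + 0.1) and log2(FPKM + 1), the fold change, a block for the replicate number, a fit of only the 6 libraries compared, and leaving out each library.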

Additional observations from a re-analysis of the deposited data

Results flagged for a closer look

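In every one of the 8 tested KLF genes the change from control at 24 h differed from that at 30 min by edgeR's test of the difference (adjusted p below 0.05 over all genes), as did 65.1% of the 11981 genes tested, so the number alone does not set the family apart. Both changes are measured from the same 3 controls, so the difference is that between the 24 h and 30 min libraries, with log2 values given as the change at 24 h minus the change at 30 min. It was 1.31 for KLF10, 0.97 for KLF6, 0.81 for KLF7, 0.70 for KLF9, 0.50 for KLF4, 0.44 for KLF13, 0.40 for KLF3 and -0.50 for KLF16. KLF16 was the single member with a lower change at 24 h. KLF10 moved to opposite sides of the control between the treatment times, and so did KLF9 by the ranges of its libraries. For KLF4 the difference missed an adjusted p of 0.05 without replicate 1 of the 30 min group (0.38, adjusted p = 0.126) and without the filter on FPKM (0.44, adjusted p = 0.0592). It passed 1.5-fold, and was then called, without replicate 2 of the 30 min group (0.59) or without replicate 3 of the 24 h group (0.60).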

How the results depend on the processing

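Of the alternatives, the direction of a member turned in 1 case: KLF13 at 30 min was 0.0074 without control replicate 3, against -0.04, and ranged from -0.088 to 0.0074 as each library was left out. The number of KLF genes called lower at 30 min was 1; it was 2 without the filter on FPKM (KLF4 added), 2 with no fold change threshold (KLF9 added), 0 at a fold change of at least 2, and 1 to 2 when each library was left out, the 2 without replicate 1 of the 30 min group (KLF9 added). The number lower at 24 h was 1 (KLF16); it was 0 with a mean FPKM above 5, with library totals alone, with limma on log2(FPKM + 0.1) or log2(FPKM + 1) and at a fold change of at least 2, and 0 to 1 when each library was left out, the 0 without control replicate 2 or replicate 2 of the 24 h group. KLF16 had a log2 change of -0.55 to -0.52 with limma and -0.55 with a mean FPKM above 5, where fewer genes were fitted. The number higher at 24 h was 2; it was 1 with a mean FPKM above 5, where KLF7 was not tested, 3 without the filter on FPKM (KLF2 added), 4 with no fold change threshold and 0 at a fold change of at least 2. Between 30 min and 24 h, 0 were lower, or 1 with no fold change threshold, and 4 were higher, or 2 with a mean FPKM above 5, 7 with no fold change threshold, 3 by limma on log2(FPKM + 1), 1 at a fold change of at least 2 and 4 to 5 when each library was left out. With the replicate block, the counts of KLF genes called were 1 lower and 0 higher at 30 min and 1 lower and 2 higher at 24 h, and it changed no call of a member; correlations of libraries with the same number were -0.133 to 0.0901, so the numbers pair nothing. No KLF gene was called higher at 30 min under any alternative run. Why calls near the 1.5-fold threshold moved was otherwise not tested. KLF2 and KLF11 are limited by depth.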
